A study of Cyprinus carpio with 9 samples.

Results

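The 25 genes described here had a higher liver messenger RNA level on a plant food than on an animal food in every library of adult common carp (Cyprinus carpio) used for the choice. They were taken from 42997 gene IDs by their measured values. In each of them the lowest of the 3 duckweed libraries was at 2 or more scaled FPKM and at least 2 times the highest of the 3 earthworm libraries. FPKM are fragments counted on a gene, divided by the length of its model and by the library's total, and scaled FPKM are those values after each library was brought to the same median over 11584 genes present in all 8 libraries used. The 100 most abundant genes, by mean FPKM over the 8 libraries, were to be dropped, and 0 of the genes past both thresholds were among them. The height of duckweed over earthworm was therefore the choice itself, and it is described below without a test. What the thresholds did not use is the level in fish given both foods. The mixed-diet libraries among the 8 entered only the scaling and the ranking by abundance.

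Carp of 492.6 ± 30 g were split into groups of 90 fish, with 3 repetitions in each group per the labels, whereas the series' design text speaks of duplicates. One group ate earthworm, another the floating plant duckweed, and the last a 1:1 mixture of both. All fish were fasted for 24 h and put under MS-222, an anaesthetic, before the liver was taken. Each diet had 3 libraries, and the labels do not say from how many fish a library was made, so the spread between libraries may be partly technical.

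The library totals behind the FPKM were 9915585 to 11883466 reads, as recovered from the steps of the values. Reads on the listed genes made up at least 99.7% of each total. These totals thus count reads on genes, and how many reads were sequenced is not known from them. The library labelled earthworm+duckweed 3 correlated with the others at 0.435 to 0.507 across the genes tested, below the 0.850 to 0.941 found among the remaining 8. It entered neither the choice nor the main comparisons, and its values are given separately. Earthworm library 3 stood nearer to duckweed libraries 1 and 2 (r = 0.941 and 0.938) than to earthworm libraries 1 and 2 (0.876 and 0.891), and the lowest of these correlations, 0.850, was between duckweed libraries 1 and 3. Genes nearly particular to duckweed library 3 had part of their level in duckweed library 2 too. In 17 genes at 2 or more scaled FPKM in duckweed library 3, and at no more than 0.1 of that level in the 6 libraries other than these 2, duckweed library 2 stood at a median of 0.298 of the level in library 3. In the other direction, over 8 genes, library 3 stood at 0.0267 of library 2. The next ordered pair of libraries, also of the same diet, was earthworm 1 in genes particular to earthworm 2, at 0.199 over 18 genes. Only pairs with 5 or more such genes were ranked. The cause was not tested.

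The common carp is an omnivore without a stomach, and its pancreas lies scattered within the liver, so carp liver samples can hold exocrine pancreas as well as hepatocytes. The liver takes up absorbed amino acids, sugars and fats, makes glucose and fat, and disposes of the nitrogen of excess protein. An animal food and a water plant differ in protein, fat, starch and fibre. The deposited IDs come without gene names, and a search of a RefSeq carp gene table matched 0 of 42997. No role, pathway or cell type could thus be given to any of the 25, the labelled tissue could not be checked against liver markers, and genes appear by ID. In a sample of whole liver, more cells of a type and more RNA per cell cannot be told apart.

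The 25 genes spanned a wide range of levels. Their lowest duckweed value ran from 2.03 to 275 scaled FPKM with a median of 6.76, and was 10 or more in 8 genes and 50 or more in 4. Their highest earthworm value ran from 0.236 to 111 with a median of 1.98. The ratio of the lowest duckweed to the highest earthworm value had a median of 2.77 and reached 12.6. It was 3 or more in 11 genes and under 2.5 in 8. The ratio of the diet means had a median of 6.37, between 2.69 and 57.1. Of the 19925 genes tested, 3.92% had every duckweed library above every earthworm library and 5.25% had every one below. The 25 genes, 0.125% of those tested, were chosen by that contrast, so nothing is read from their share. With the FPKM as deposited the 2 directions counted 1569 and 428 genes, in place of 781 and 1047, and with median-of-ratios scaling 951 and 837. The median log2 difference of all genes tested was -0.01 as scaled and 0.15 as deposited.

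Gene CAFS_CommonC_G_066885 had the largest ratio between the closest libraries of the 2 diets. Its earthworm libraries 1 to 3 stood at 0.0972, 0.141 and 0.236 scaled FPKM, and its duckweed libraries 1 to 3 at 18.02, 2.97 and 6.11. Only 1, 2 and 4 reads lay behind the earthworm values, against 337, 52 and 93 on duckweed. The means were 0.158 ± 0.0710 (SD, n = 3) and 9.04 ± 7.94 (SD, n = 3), with the duckweed SD nearly as large as its mean. Its mixed-diet libraries 1 and 2 stood at 0.147 and 0.743, the first inside the earthworm range and the second above it.

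Gene CAFS_CommonC_G_047392 was second, with a ratio of 8.10. It stood at 1.19, 2.27 and 0.172 scaled FPKM in earthworm libraries 1 to 3 and at 97.6, 34.6 and 18.4 in duckweed libraries 1 to 3. Unlike the gene before it, it was also high in both mixed-diet libraries, at 41.1 and 10.2. The first of these lay within the duckweed range and the second between the single diets.

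**Figure D1:**
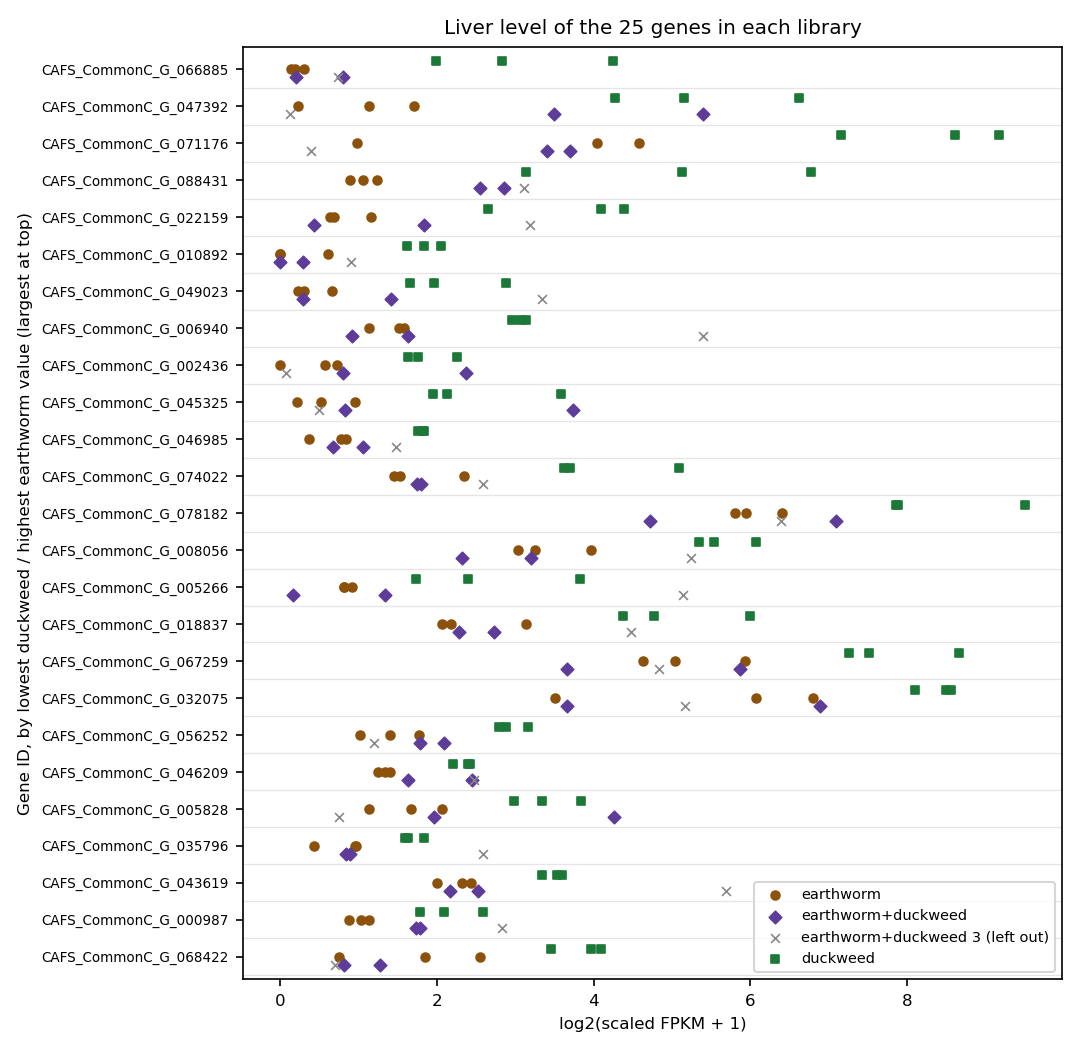
Scaled FPKM of the 25 genes, one row each, on a log2(value + 1) axis. Each point is 1 library, coloured by diet, and crosses mark the library labelled earthworm+duckweed 3. The gap between brown and green points in each row is what chose the genes, while most purple points lie at or left of the middle of that gap.

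The most abundant pair, by mean FPKM over the 8 libraries, were CAFS_CommonC_G_078182 and CAFS_CommonC_G_032075. The first stood at 83.7, 54.8 and 60.6 scaled FPKM on earthworm and at 232, 235 and 726 on duckweed. Duckweed library 3 was about 3 times the other 2, and the mean on duckweed was 398 ± 284 (SD, n = 3). The second stood at 10.3, 66.2 and 111 on earthworm and at 361, 275 and 377 on duckweed. Here the spread lay within earthworm, with a mean of 62.4 ± 50.2 (SD, n = 3), while the duckweed libraries were close together at 338 ± 54.9 (SD, n = 3). With CAFS_CommonC_G_071176 and CAFS_CommonC_G_067259, described below, these 4 genes held 81.3% of the summed scaled FPKM of the 25 on duckweed. The sum over the 25 genes was 181, 187 and 290 in earthworm libraries 1 to 3 and 1639, 1058 and 2288 in duckweed libraries 1 to 3. It was 423 and 127 in mixed-diet libraries 1 and 2, so by this sum the second lay below every earthworm library. By the median over the 25 genes it did not. That was 2.45 and 2.56 in mixed-diet libraries 1 and 2, beside 1.19, 1.18 and 1.53 in earthworm libraries 1 to 3.

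Several genes rested on few reads. In 5 of the 25 every earthworm library held fewer than 10 reads: CAFS_CommonC_G_066885 above, CAFS_CommonC_G_010892, CAFS_CommonC_G_002436, CAFS_CommonC_G_035796 and CAFS_CommonC_G_046985, the last 4 picked for this after their values were seen. CAFS_CommonC_G_010892 had 0, 0 and 3 reads in earthworm libraries 1 to 3 and 13, 15 and 16 reads in duckweed libraries 1 to 3. CAFS_CommonC_G_046985 had 2, 1 and 3 reads on earthworm and 12, 11 and 9 on duckweed. A count of 0 allows up to 3 reads, counting error only. In earthworm libraries 1 and 2, which held such counts, that was 0.303 and 0.275 CPM (counts relative to the library's total). CPM are not divided by gene length, so these floors cannot be set beside scaled FPKM. At the other end, CAFS_CommonC_G_078182 had 1063 to 1406 reads on earthworm and 5633 to 15140 on duckweed. Gene models of the 25 were 335 to 7955 bases long with a median of 1800, beside 2041 for all genes tested.

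The genes at the edge of the choice differed little from those just outside. CAFS_CommonC_G_068422, with a ratio of 2.04, stood at 2.60, 0.684 and 4.87 scaled FPKM on earthworm and at 9.93, 14.6 and 16.1 on duckweed. CAFS_CommonC_G_000987, with a ratio of 2.06, stood at 1.04, 1.18 and 0.829 and at 5.03, 2.44 and 3.26. Of the genes left out, the nearest were CAFS_CommonC_G_009462, with a highest earthworm value of 2.04 and a lowest duckweed value of 3.999, and CAFS_CommonC_G_053094, with 1.36 and 2.64. Their ratios were 1.96 and 1.94.

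The duckweed libraries did not carry the 25 genes evenly. The highest duckweed library was number 3 in 12 genes, number 1 in 10 and number 2 in 3. How often each was highest over all genes tested was not counted. The highest and the lowest duckweed library were within 1.5-fold in 7 genes and within 2-fold in 12, and were over 4-fold apart in 5. Their ratio had a median of 2.06, beside 1.87 over all genes tested. The 25 stood higher on duckweed, with a median of means of 9.77 scaled FPKM beside 2.84. Genes of like level were not compared, so nothing particular to the 25 is read from the unevenness. In CAFS_CommonC_G_088431 the ratio reached 14.0, with 7.80, 34.0 and 109 scaled FPKM in duckweed libraries 1 to 3. Its earthworm libraries stood at 1.07, 1.36 and 0.857. In CAFS_CommonC_G_066885 it was 6.06, and there library 1 was the highest. Duckweed library 2 stood at a median of 0.755 of library 3 over the 25 genes, between 0.261 and 2.19.

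**Figure D2:**
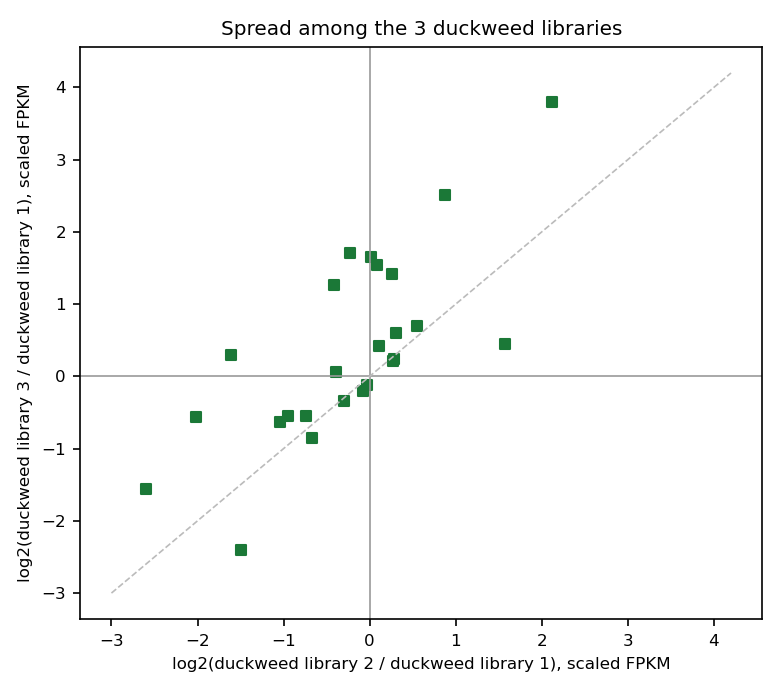
Each square is 1 of the 25 genes, placed by the log2 ratio of duckweed library 2 to library 1 (x axis) and of library 3 to library 1 (y axis), in scaled FPKM. The dashed line marks equal levels in libraries 2 and 3. Both axes divide by library 1, so genes high in it lie at the lower left by construction.

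Among the earthworm libraries, number 3 was the highest in 13 of the 25 genes and numbers 1 and 2 in 6 each. The same count over all genes tested was not made. Single libraries set how many genes were chosen. The same thresholds gave 140 genes without earthworm library 3, the one that stood nearer to duckweed, and 102 without duckweed library 1. Without duckweed library 2 they gave 53, and without duckweed library 3 they gave 49. Without earthworm libraries 1 or 2 they gave 46 and 42. All 25 genes were among those chosen in each of these 6 cases, as follows from asking fewer libraries to pass.

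On bounds set by the libraries that chose the genes, the mixed-diet values lay more often nearer to earthworm than to duckweed. Both mixed-diet libraries were at or below the highest earthworm library in 8 of the 25, both lay between the highest earthworm and the lowest duckweed library in 2, and both were at or above the lowest duckweed library in 0. In the other 15 the 2 libraries fell in different places. Taken singly, library 1 was at or below the highest earthworm value in 15 genes, between in 6 and at or above the lowest duckweed value in 4. Library 2 was so in 12, 11 and 2. On a log2(scaled FPKM + 1) scale running from 0 at the earthworm mean to 1 at the duckweed mean, library 1 stood at a median of 0.116 over the 25 genes (range -0.429 to 1.49) and library 2 at 0.194 (range -0.616 to 1.59). Both were under 0.5 in 18 genes and both over 0.5 in 2. The bounds and the scale come from the libraries that chose the genes, so these counts and medians are a description. The matching counts over all genes tested were not made. No effect of the mixed diet is read from them. With earthworm library 3 left out, 5 genes had both libraries at or below earthworm and 4 had both between, and the medians were 0.165 and 0.207.

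Of the genes at the earthworm level in both mixed-diet libraries, CAFS_CommonC_G_067259 and CAFS_CommonC_G_071176 had the highest duckweed levels. CAFS_CommonC_G_067259 stood at 57.6 and 11.6 scaled FPKM in mixed-diet libraries 1 and 2, beside 23.7, 31.9 and 60.4 on earthworm and 152, 182 and 405 on duckweed. Mixed-diet library 1 was near the top of the earthworm range and library 2 below all of it. CAFS_CommonC_G_071176 stood at 11.95 and 9.61 on the mixed diet, beside 23.0, 0.970 and 15.5 on earthworm and 577, 142 and 391 on duckweed. Both mixed-diet values lay inside the earthworm range, and every duckweed library was more than 6 times the highest earthworm library.

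Both mixed-diet libraries lay between the single diets in CAFS_CommonC_G_088431 and CAFS_CommonC_G_056252. The first stood at 4.86 and 6.24 scaled FPKM on the mixed diet, above its earthworm values and just below the lowest of its scattered duckweed values. The second stood at 3.25 and 2.45, beside 1.03, 2.41 and 1.63 on earthworm and 5.89, 6.37 and 7.91 on duckweed. Mixed-diet library 2 was there barely above the highest earthworm library.

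The 2 mixed-diet libraries often differed from each other. They were over 2-fold apart, as value + 1, in 10 of the 25 genes, a share not counted over all genes tested. The median size of their log2 ratio was 0.72, beside 0.33 over all genes tested. Genes of like level were not compared, so this is not read as particular to the 25. Across the 25 genes the places of the 2 libraries correlated at r = 0.105 (Spearman's rho 0.164), a description of genes that share both libraries. CAFS_CommonC_G_032075 was furthest apart, at 118 in library 1 and 11.6 in library 2, against an earthworm range of 10.3 to 111. CAFS_CommonC_G_045325 went the other way, at 0.768 and 12.3. Its earthworm libraries stood at 0.436, 0.159 and 0.927 and its duckweed libraries at 3.36, 2.87 and 10.96, so library 2 was above every duckweed library while library 1 was inside the earthworm range. The most abundant gene, CAFS_CommonC_G_078182, stood at 135 and 25.3, the first above and the second below every earthworm library. In all, library 2 was below every earthworm library in 4 genes and library 1 in 2, and each was above every duckweed library in 2. The matching shares over all genes tested were not counted, so these counts are a description.

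**Figure D3:**
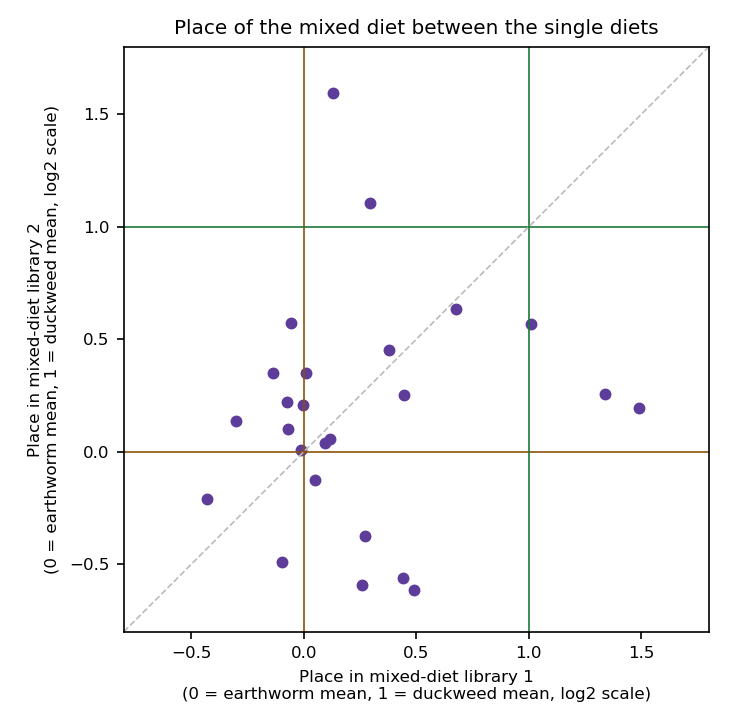
Place of each of the 25 genes in mixed-diet library 1 (x axis) and library 2 (y axis), on a log2(scaled FPKM + 1) scale on which 0 is the earthworm mean (brown lines) and 1 the duckweed mean (green lines). The dashed line marks equal places. Most points lie below 0.5 on both axes, and the points beyond 1 are so in 1 library alone.

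The mixed diet was also set against the midpoint of the single diets, with limma over 8 libraries. The duckweed and earthworm values that chose the 25 genes also make up this midpoint. Which way the choice moves the mixed diet from the midpoint was not tested. The values of the 25 are therefore a description and no p is read from them. The mixed diet was below the midpoint in 19 of the 25 genes, beside 49.7% of all genes tested, and above it in 6, beside 50.3%. The median log2 difference was -0.87 beside 0.0023. With the library labelled earthworm+duckweed 3 added, 17 of the 25 were below it, beside 8754 of 20758 genes tested. The medians were then -0.20 and 0.077. With the FPKM as deposited, 19 of the 25 were below it, beside 11662 of 20105, with medians of -0.94 and -0.07. Across all 19925 genes, 0 (0%) passed an adjusted p of 0.05 (limma, Benjamini-Hochberg), while 537 were higher and 720 lower at an unadjusted p under 0.05.

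Below the midpoint, the genes named were CAFS_CommonC_G_008056 and CAFS_CommonC_G_068422. The order of p served only to pick which genes to name. The SE given with them describe the fit and are not read as a test. CAFS_CommonC_G_008056 stood at 14.6, 7.17 and 8.55 scaled FPKM on earthworm, at 8.19 and 3.98 in mixed-diet libraries 1 and 2, and at 66.5, 39.7 and 45.4 on duckweed. Mixed-diet library 1 lay inside the earthworm range and library 2 below it, both far below every duckweed library. The log2 difference from the midpoint was -1.78 (SE 0.37). With the main scaling this gene stood at 37.0 in the library labelled earthworm+duckweed 3, near its lowest duckweed value. CAFS_CommonC_G_068422, at the edge of the choice, stood at 0.752 and 1.42 on the mixed diet, within its earthworm range, and its log2 difference was -1.73 (SE 0.43).

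Above the midpoint, the genes named in the same way were CAFS_CommonC_G_047392 and CAFS_CommonC_G_005828. The log2 difference of the first was 1.26 (SE 0.69), and became -0.19 with the library labelled earthworm+duckweed 3, where the gene stood at 0.0857 scaled FPKM. CAFS_CommonC_G_005828 stood at 1.19, 3.17 and 2.17 on earthworm and at 13.3, 6.88 and 9.11 on duckweed. Mixed-diet library 1, at 18.1, was above every duckweed library, while library 2, at 2.89, was inside the earthworm range. Its log2 difference of 0.61 (SE 0.54) rested on library 1 and was -0.54 without it.

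**Figure D4:**
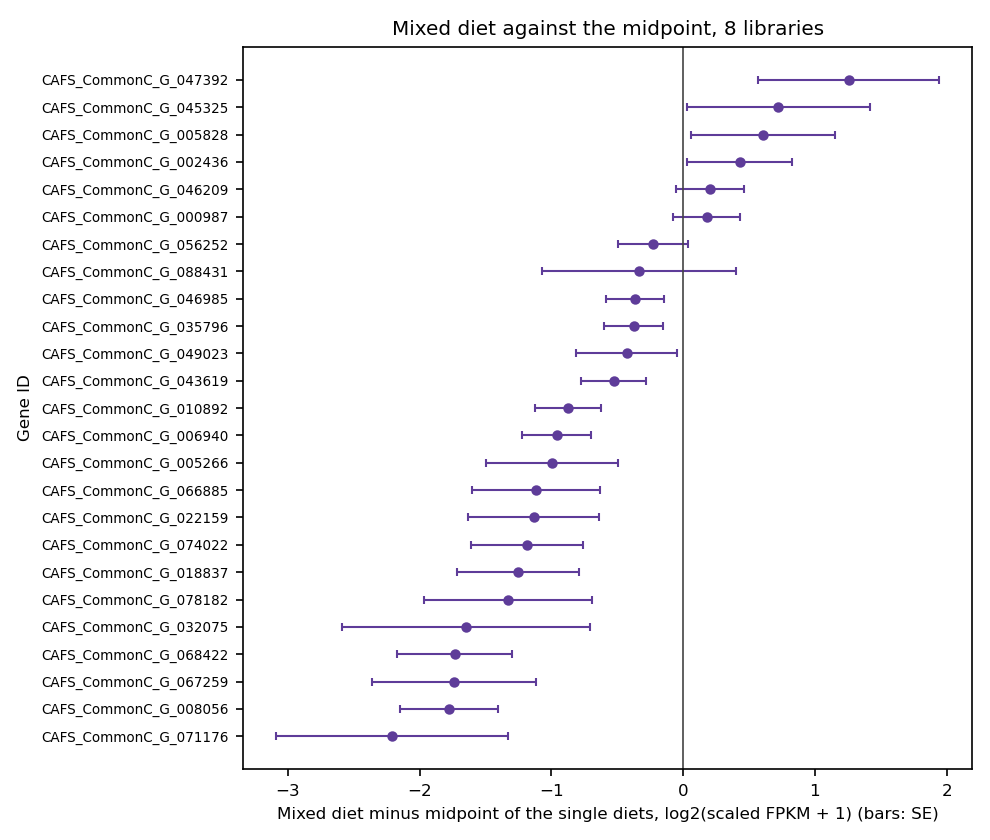
Difference of the mixed diet from the midpoint of the single diets for the 25 genes, in log2(scaled FPKM + 1), with bars of 1 SE from the limma fit of 8 libraries. Points left of 0, 19 of the 25, lie nearer to the earthworm mean. The values that chose the genes enter the midpoint, so the bars are a description and no test.

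Against each single diet the mixed diet shares libraries with the choice, so these counts too are a description. Both mixed-diet libraries were above every earthworm library in 6 of the 25 genes, beside 9.58% of all genes tested, and below every duckweed library in 19, beside 12.3%. The median log2 difference over the 25 was 0.21 for the mixed diet minus earthworm and 1.78 for duckweed minus the mixed diet, beside -0.0011 and -0.0041 over all genes tested. Without the duckweed libraries, where the genes are high, 16 of the 25 passed the filter on low values. Across all 19925 genes, 0 (0%) passed an adjusted p of 0.05 in either comparison (limma). At an unadjusted p under 0.05, the mixed diet exceeded earthworm in 429 genes and was under it in 645, and duckweed exceeded the mixed diet in 724 and was under it in 557.

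The 12 genes not named by a rule were of low to middling level. Their lowest duckweed value was between 2.03 and 19.7 scaled FPKM and their highest earthworm value between 0.526 and 7.81. Their ratio of lowest duckweed to highest earthworm value was between 2.07 and 4.27. Both mixed-diet libraries were at or below earthworm in 4 of them, and the 2 libraries fell in different places in the other 8. CAFS_CommonC_G_002436 was one of these 8 and was picked after its values were seen, at 4.15 and 0.746 in mixed-diet libraries 1 and 2, beside 0, 0.488 and 0.652 on earthworm and 3.77, 2.37 and 2.09 on duckweed.

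With the diets exchanged, the same thresholds gave 17 genes higher on earthworm than on duckweed, but 11 with the FPKM as deposited and 13 with median-of-ratios scaling. There too the 2 mixed-diet libraries fell in different places in most, 10 of the 17. Both were at or above the lowest earthworm library in 0, between in 4, and at or below the highest duckweed library in 3. On the same scale, with 0 at earthworm and 1 at duckweed, their medians were 0.281 for library 1 and 0.503 for library 2. The mixed diet was on the earthworm side of the midpoint in 10 of the 17, with a median log2 difference of 0.11. The difference between the 2 sets was not tested.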

How the data were processed

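Per the file headers, the authors deposited 1 FPKM value per gene ID and library. The submitters' processing notes name HTSeq 0.6.0. For the aligner, the build, the annotation and the strand setting, nothing is given in the sources used here, so reads of near-identical copies, overlapping or antisense genes may be shared, and carp has many duplicated genes. The diets and replicate numbers come from the sample titles.

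FPKM were divided by each library's median over genes at 1 FPKM or more in all 8 libraries, relative to the mean of the 8 medians. This scaling ranged from 0.771 to 1.18, and was 1.90 for the library labelled earthworm+duckweed 3. Whole reads, totals and gene lengths were recovered from the steps of the FPKM values, with lengths from 60 to 40000 bases and a tolerance of 0.02 reads. Recovered reads made up at least 99.7% of each total. They describe the depth of reads counted on genes and entered no test.

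Diet means were fitted to log2(scaled FPKM + 1) with limma 3.58.1 under R 4.3.3. The pseudocount was 1, which understates the change of low genes. Trend and robust were both on. P-values are two-sided, with Benjamini-Hochberg adjustment across the 19925 genes at 1 scaled FPKM or more in at least 3 libraries, with a threshold of 0.05. The members' own p-values are not given, since the values that chose the genes enter each contrast; leaving out a duckweed library left 22 of the 25 in the fit. All 25 genes passed this filter, through duckweed if nothing else. The scripts were tested on simulated data. Other calculations used Python 3.11.15.

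Named genes are 2 per pattern: largest ratio, highest mean FPKM, highest lowest-duckweed value within each place of the mixed diet, mixed-diet or duckweed libraries furthest apart, nearest the threshold, and smallest midpoint p in each direction. The genes, thresholds and rules were chosen with earlier results of these data known. Alternatives were other scalings, thresholds, pseudocount and filters, the robust option off, the groups compared alone, the replicate number as a block, the library labelled earthworm+duckweed 3 added, and each library left out. A marker list for liver cell types needed gene names and was not used.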

Additional observations from a re-analysis of the deposited data

Results flagged for a closer look

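The library labelled earthworm+duckweed 3 entered neither the choice of genes nor the main comparisons, and appears above only as an alternative. In it, 15 of the 25 genes lay above the highest earthworm library, which is why it is given here. Of the 15, 9 were at or above the lowest duckweed library, and 7 of the 25 were above every duckweed library. The other 10 were at or below the highest earthworm library, and 4 of those were below every earthworm library. The matching shares over all genes tested were not counted, so nothing particular to the 25 is read from these counts. The counts hold for the main scaling, which divided this library by 1.90. Median-of-ratios scaling would divide it by 2.52, and the FPKM as deposited by 1. The counts were not made with either. The part of this library's general difference from the other 8 in these values was not tested.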

How the results depend on the processing

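The 25 genes became 62 with a ratio of 1.5, 11 with a ratio of 3 and 15 with a level of 5, and between 42 and 140 with 1 library of a single diet left out. As deposited the thresholds gave 36 genes, the 25 among them, and with median-of-ratios scaling 28, of which 23 were shared. That scaling put 1 gene at or above duckweed in both mixed-diet libraries. With the library labelled earthworm+duckweed 3 added to the mixed diet, chosen after seeing the data, 3 genes had all at or below earthworm and 1 had all between. With 1 single-diet library left out the counts ran from 5 to 8 at or below earthworm and from 2 to 4 between. They were 0 at or above duckweed and ran from 14 to 16 in different places. With 1 mixed-diet library left out, the places were those of the other one alone, as given above. The median place of library 1 was 0.205 with a pseudocount of 0.1, and 0.0484 to 0.165 with 1 library left out; that of library 2 was 0.138 to 0.210.

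Over all settings run, the midpoint difference changed sign at least once in 11 of the 25 genes, 4 of the 13 named by rule and 7 others. Of the 4, it turned in CAFS_CommonC_G_047392 (-0.19) and CAFS_CommonC_G_005828 (-0.18) with the library labelled earthworm+duckweed 3, and in CAFS_CommonC_G_088431 with the replicate block (0.065) and without duckweed library 3 (0.11; -0.80 to 0.11 over libraries left out). It also turned in CAFS_CommonC_G_045325 without mixed-diet library 2 (-0.73, against up to 2.18) and in CAFS_CommonC_G_005828 without mixed-diet library 1 (-0.54, against up to 1.75). The cause was not tested. A lone mixed-diet library was assumed to vary like the other groups. Deviations of same-numbered libraries of different diets correlated between -0.409 and -0.00855. Those of different-numbered libraries correlated between -0.191 and 0.347. The deviations were taken from each diet's own mean, so those of the 2 mixed-diet libraries mirror each other. Within a single diet they sum to 0, which ties its libraries together too. The check therefore cannot decide whether the numbers pair the samples. With the replicate block 0 genes passed for the midpoint by limma, the 25 included, and 404 were higher and 542 lower at an unadjusted p under 0.05. Without earthworm library 3, 1 of 19217 genes passed for duckweed against the mixed diet by limma, and it was not one of the 25. Fits without a mixed-diet library left 1 library in that group, so no count of genes passing is read from them.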
